A study of Mus musculus with 8 samples.

Results

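In the mouse cornea, 10 genes of 3 growth factor systems were followed, the ligand genes Fgf1, Fgf2, Fgf7, Hgf, Pdgfa and Pdgfb and the receptor genes Fgfr1, Fgfr2, Met and Pdgfra. They were taken by symbol from the 24918 gene rows of the deposited table, and each of the 10 symbols had 1 row. The libraries came from whole corneas of male wild-type C57BL/6J mice whose adrenal glands had been removed at 8 weeks of age, so that all mice, controls included, lacked their own adrenal source of glucocorticoids. About 4 weeks after surgery vehicle eye drops or drops of the synthetic glucocorticoid dexamethasone were applied, and corneas were taken at 6 h. There were 4 libraries per treatment, each from a pool of 4 to 6 corneas. Drug dose and number of mice per pool were not found in the labels, and p-values measure the spread between these pools.

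Fibroblast growth factors signal through receptor tyrosine kinases and need heparan sulfate chains at the cell surface to bind them. Hepatocyte growth factor acts through the receptor MET, and platelet-derived growth factors act through dimers of PDGFRA and PDGFRB. In the cornea these systems carry signals between the stroma, whose keratocytes are known to make FGF7 and HGF, and the epithelium, which carries FGFR2 and MET, while PDGF made by the epithelium acts on stromal cells. They are known for driving epithelial migration and division and keratocyte activation after injury. The comparison asks which of these genes differ in RNA level after a glucocorticoid reaches the eye.

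Values are on the authors' normalized log2 scale, on which a difference of 1 is a doubling. The values look like shrunken log2 values, so differences and folds may be understated, most for low genes. Read totals per library are unknown beyond the labels' statement of more than 40000000 reads, so no counting interval is given. The treatment was visible in its known targets: Fkbp5, Tsc22d3 and Per1 differed by 0.88, 0.59 and 0.42 between the groups (adjusted p of 3.43e-06, 7.41e-06 and 2.86e-05, limma), without overlap. In all, 2218 of 14715 tested rows, or 15.1%, were called at an adjusted p below 0.05 (limma), 9.04% higher and 6.03% lower after dexamethasone. Dexamethasone replicate 1 and vehicle replicate 3 stood apart in genes of wounded epithelium. Krt16 was 9.33 and 11.20 in these libraries and 7.33 to 8.04 in the other 6.

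Of the 10 genes, 9 had a mean of at least 3 and were tested, and 4 of them passed, against 15.1% of all tested rows. Fgfr1, Pdgfra and Hgf rose and Fgf1 fell. The median difference of the 9 was 0.02, beside -0.00292 over all tested rows. In the same 4 genes the groups did not overlap, as in 20.7% of all tested rows.

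**Figure D1:**
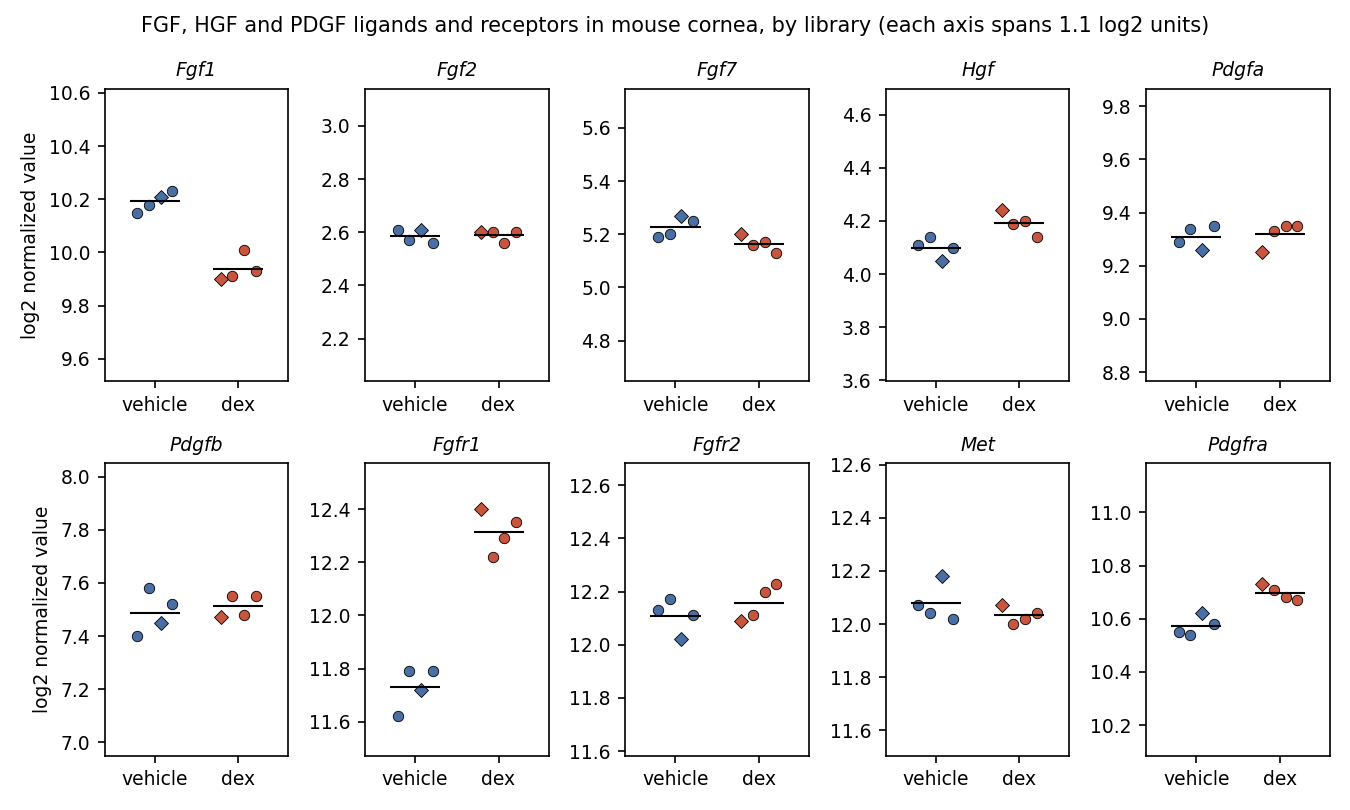
Log2 normalized value (vertical axes, all of the same span) of the 10 genes in the 4 vehicle libraries (blue) and the 4 dexamethasone libraries (red), with the group mean as a line; diamonds are dexamethasone replicate 1 and vehicle replicate 3. The 4 dexamethasone libraries lie above all vehicle libraries for Fgfr1, from 12.22 to 12.40 against 11.62 to 11.79, and below them for Fgf1, from 9.90 to 10.01 against 10.15 to 10.23.

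Fgfr1 showed the widest difference of the 9 tested genes. The gene (Entrez 14182) encodes a receptor for many FGFs that mesenchymal cells use above all, and its longest coding transcript lies on the plus strand of mm9 chromosome 8 from 26629264 to 26686186 in 18 exons. Its log2 values after dexamethasone were 12.40, 12.22, 12.29 and 12.35 in replicates 1 to 4, and after vehicle 11.62, 11.79, 11.72 and 11.79. Every dexamethasone library was thus higher than every vehicle library. The means were 12.31 ± 0.08 (SD, n = 4) and 11.73 ± 0.08 (SD, n = 4), a 1.5-fold rise (difference 0.58, SE 0.048, 95% interval 0.48 to 0.69, adjusted p = 1.83e-05, limma). By size, this was rise number 48 among the 14715 tested rows. The difference was 0.55 to 0.61 in all 18 alternative settings, with an adjusted p of at most 0.00048. The rows that followed Fgfr1 most closely over the 8 libraries of both groups were Bmper, a gene of an extracellular BMP-binding protein, Tenc1, a gene of a tensin family protein, and Plxna2, a semaphorin receptor gene, with Pearson r of 0.993, 0.992 and 0.989. The annotation places Gm16159 on the opposite strand across the Fgfr1 transcript. It was not found by symbol in the table, and whether reads were counted by strand is not stated. The likeness coefficients contain the difference between the groups and describe likeness only.

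The other FGF receptor among the 10, Fgfr2 (Entrez 14183; minus strand of mm9 chromosome 7, 137306026 to 137409759, 16 exons), did not pass the test. Its splice forms include the epithelial receptor for FGF7 and FGF10, but a value per gene does not separate them from the mesenchymal form. It stood at 12.09, 12.11, 12.20 and 12.23 after dexamethasone and at 12.13, 12.17, 12.02 and 12.11 after vehicle, and the groups overlapped. The difference of 0.05 had a 95% interval of -0.04 to 0.14 (adjusted p = 0.427, limma).

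Before division by length, the Fgfr1 row was thus below the Fgfr2 row in each vehicle library and above it in each dexamethasone library. Fgfr1 minus Fgfr2 was 0.32, 0.11, 0.08 and 0.11 after dexamethasone and -0.51, -0.37, -0.30 and -0.32 after vehicle, a change of 0.53 in the log2 ratio. These are ratios of values not divided by length, so the sign compares rows, whereas the change between groups does not depend on length or on the scaling of a library. Per kb of transcript the mean of Fgfr2 was above that of Fgfr1 in both groups. It was 10.03 against 9.41 after vehicle and 10.08 against 9.99 after dexamethasone. The log2 ratio of Fgfr1 to Pdgfra was 1.51 to 1.68 against 1.06 to 1.25, a change of 0.46, and that of Fgfr1 to Met was 0.22 to 0.33 against -0.46 to -0.22, a change of 0.63. All 3 ratios separated the groups (exact permutation test, two-sided, p = 0.0286 each, n = 4 per group, and 0.0286 after Benjamini-Hochberg adjustment over the 3). That is the smallest p that the 70 splits of 4 against 4 allow, and the ratios were chosen after the values had been seen. All 3 contain Fgfr1, whose own values did not overlap between the groups. The tests are therefore not separate from the difference of Fgfr1 and add no support to it.

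**Figure D2:**
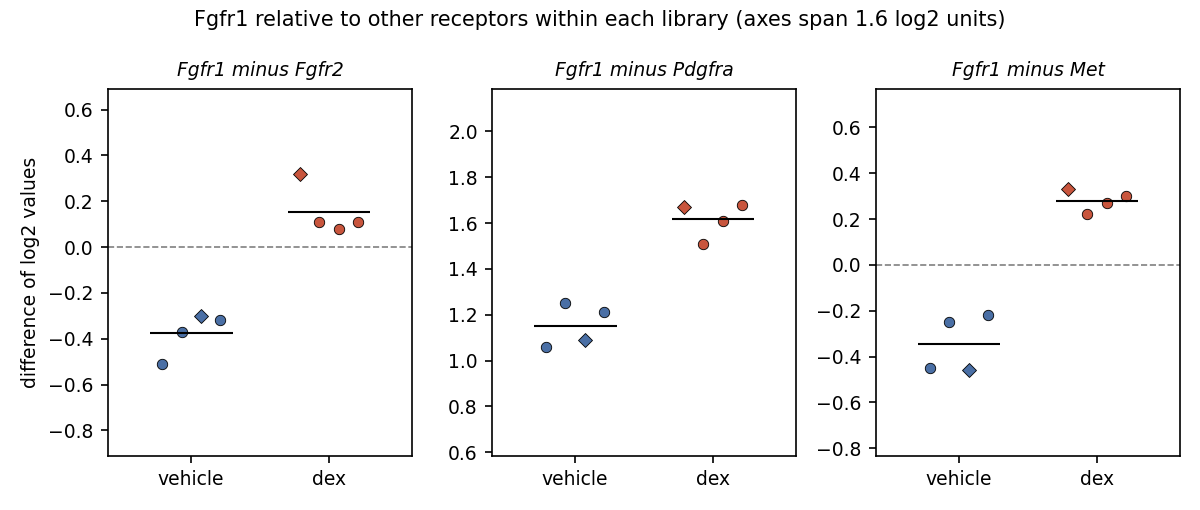
Difference of log2 values (vertical axes, all of the same span) between Fgfr1 and each of Fgfr2, Pdgfra and Met within each vehicle (blue) and dexamethasone (red) library, with group means as lines and zero dashed where it is in range; diamonds are dexamethasone replicate 1 and vehicle replicate 3. Fgfr1 minus Fgfr2, not divided by length, lies between -0.51 and -0.30 after vehicle and between 0.08 and 0.32 after dexamethasone.

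Pdgfra, the receptor gene that marks stromal and other connective tissue cells and binds PDGF-A and PDGF-B chains, rose by a smaller amount. The row (Entrez 18595; plus strand of mm9 chromosome 5, 75552191 to 75594229, 23 exons) was 10.73, 10.71, 10.68 and 10.67 after dexamethasone and 10.55, 10.54, 10.62 and 10.58 after vehicle. The groups did not overlap, and the highest library of each was the one with high Krt16. The means of 10.70 ± 0.03 (SD, n = 4) and 10.58 ± 0.04 (SD, n = 4) differed by 0.12, or 1.09-fold (SE 0.029, 95% interval 0.06 to 0.18, adjusted p = 0.0173, limma). The adjusted p was 0.0544 without vehicle replicate 2 and 0.0196 without the 2 libraries with high Krt16. Ecm1, an extracellular matrix protein gene, Igfbp3, an IGF-binding protein gene, and Ccdc85c followed it most closely, with r of 0.976, 0.975 and 0.973 over the 8 libraries.

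Met, the HGF receptor gene (Entrez 17295; plus strand of mm9 chromosome 6, 17413800 to 17523980, 22 exons), did not pass. It stood at 12.07, 12.00, 12.02 and 12.04 after dexamethasone and at 12.07, 12.04, 12.18 and 12.02 after vehicle. The highest library of either group was again that with high Krt16. The difference was -0.04, with a 95% interval of -0.12 to 0.04 (adjusted p = 0.466, limma).

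Fgf1 was the ligand gene that differed most. It encodes an FGF without a classical signal peptide that binds all FGF receptors, and its row (Entrez 14164; minus strand of mm9 chromosome 18, 38998327 to 39078425, 4 exons) was 9.90, 9.91, 10.01 and 9.93 after dexamethasone. After vehicle it was 10.15, 10.18, 10.21 and 10.23, so that all 4 vehicle libraries were higher. The means were 9.94 ± 0.05 (SD, n = 4) and 10.19 ± 0.03 (SD, n = 4), which is 1.19-fold lower after dexamethasone (difference -0.26, SE 0.033, 95% interval -0.33 to -0.18, adjusted p = 0.000367, limma). By size it was fall number 178 among the 14715 tested rows. The adjusted p was at most 0.00242 in all 18 alternative settings. The annotation places Arhgap26 on the opposite strand across this transcript. Arhgap26 was 8.76 ± 0.05 (SD, n = 4) against 8.72 ± 0.05 (SD, n = 4) (adjusted p = 0.592, limma). Closest to Fgf1 over the 8 libraries were Gm16938, the DNA polymerase alpha gene Pola1 and Rap1gap2, a gene of a Rap GTPase-activating protein, with r of 0.994, 0.984 and 0.983.

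**Figure D3:**
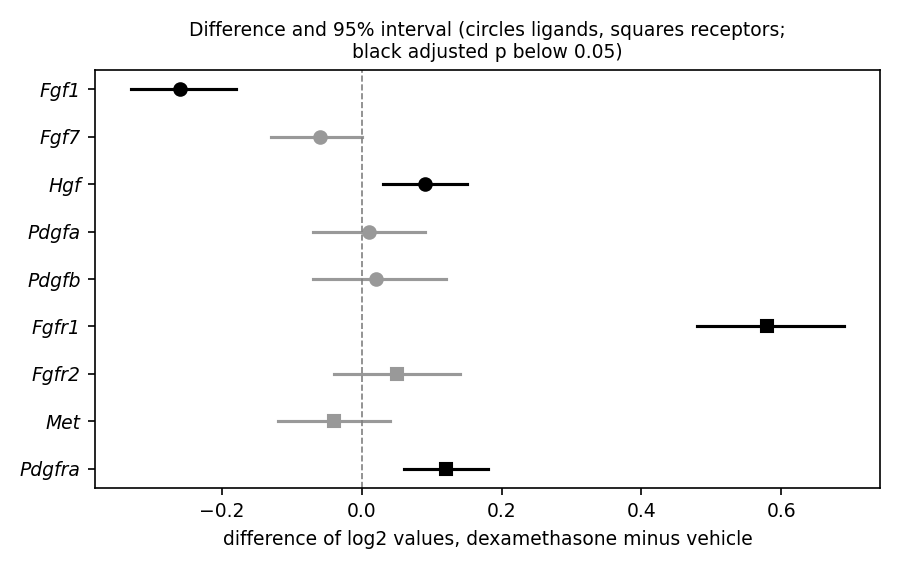
Difference of log2 values, dexamethasone minus vehicle (horizontal axis), with its 95% interval for the 9 tested genes; circles are ligands, squares are receptors, and black marks an adjusted p below 0.05. Fgfr1 stands at 0.58, Pdgfra at 0.12, Hgf at 0.09 and Fgf1 at -0.26.

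Hgf had low values and a small rise. The gene (Entrez 15234; plus strand of mm9 chromosome 5, 16059368 to 16125257, 19 exons) was 4.24, 4.19, 4.20 and 4.14 after dexamethasone and 4.11, 4.14, 4.05 and 4.10 after vehicle. The groups did not overlap to the precision of the file, although the lowest dexamethasone and the highest vehicle library both round to 4.14. The difference was 0.09, or 1.07-fold (SE 0.026, 95% interval 0.03 to 0.15, adjusted p = 0.0369, limma). Of the 200 rows nearest to it in level, 5.5% were called, their median difference was -0.00345 and 8 had a greater rise. The call was lost in 10 of 17 alternative settings. The adjusted p was 0.0877, 0.0722 and 0.0756 without dexamethasone replicates 1, 2 and 3, and 0.0596, 0.0855 and 0.0879 without vehicle replicates 1, 3 and 4. It was 0.163 without both libraries with high Krt16. Nxpe3, Cyp2f2 and Zfp821 were the rows most like it, with r of 0.972, 0.966 and 0.955.

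The remaining 4 ligand genes did not show a difference that passed. Fgf7, the keratinocyte growth factor gene (Entrez 14178; mm9 chromosome 2, 125860394 to 125916921), had means of 5.16 ± 0.03 (SD, n = 4) after dexamethasone and of 5.23 ± 0.04 (SD, n = 4) after vehicle, with libraries of 5.13 to 5.20 and 5.19 to 5.27. Its difference of -0.06 had an adjusted p of 0.167 (limma). Pdgfa (Entrez 18590; mm9 chromosome 5, 139451968 to 139470991) was 9.32 ± 0.05 (SD, n = 4) against 9.31 ± 0.04 (SD, n = 4), with a 95% interval of the difference of -0.07 to 0.09. In each group its lowest library was the one with high Krt16, at 9.25 and 9.26. Pdgfb (Entrez 18591; mm9 chromosome 15, 79826330 to 79845238) was 7.51 ± 0.04 (SD, n = 4) against 7.49 ± 0.08 (SD, n = 4), with an interval of -0.07 to 0.12. Fgf2 (Entrez 14173; mm9 chromosome 3, 37247268 to 37304299), a mitogen of keratocytes and corneal endothelial cells, had a mean under 3 and was not tested. It ranged from 2.56 to 2.60 after dexamethasone and from 2.56 to 2.61 after vehicle, and Nudt6 and Gm12541 are annotated on the opposite strand across it. Likewise 4930525F21Rik is annotated across Fgf7 and Gm17247 across Pdgfa.

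To rank levels of different genes, the log2 length in kb of the longest coding transcript was subtracted. The receptor ratios above and the marker sums below are not divided by length. On this scale Fgfr2 was highest of the 10 in vehicle corneas, at 10.03, followed by Fgfr1 at 9.41, Met at 9.31, Pdgfa at 8.27, Fgf1 at 8.20, Pdgfra at 7.86, Pdgfb at 5.94, Fgf7 at 3.81, Hgf at 2.64 and Fgf2 at 2.28. Fgfr1 and Met, and likewise Pdgfa and Fgf1, lay within 0.10 of each other, close to their SDs of 0.03 to 0.08. After dexamethasone Fgfr1 stood at 9.99 beside Fgfr2 at 10.08, a gap like their SDs of 0.08 and 0.07, while Fgf1 at 7.94 stood below Pdgfa at 8.28 and next to Pdgfra at 7.98. The ligand genes Fgf7, Hgf and Fgf2 were the lowest of the 10 in both groups. Fgf10, another ligand of the epithelial form of FGFR2, reached 9.15 after vehicle and 9.22 after dexamethasone per kb, above all 6 ligand genes of the set. These levels rest on shrunken log2 values and on 1 transcript model per gene.

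Promoter windows are shown for Pdgfra and Hgf, the called genes with an entry in the RefSeq table for GRCm38.p6, in which 7 of the 10 genes matched. Fgf1, Fgfr1 and Pdgfb had none. The glucocorticoid receptor binds a palindrome of the hexamer AGAACA spaced by 3 bases, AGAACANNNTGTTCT. Both forms were searched on both strands of 32851 windows of 300 bases. The palindrome was in 0.00913% of all windows and in none of the 9 windows of the set. The hexamer, which is also contained in the palindrome, was in 19.0% of all windows and in 1 of the 9, a window of Hgf. The sequences run 5′ to 3′ on the plus strand and capitals mark the hexamer as its reverse complement, whose first base is base 17 after the start of the Hgf transcript. Of the searched windows, which run from 250 bases before to 50 after the start, the sequences shown are shortened at their 3′ ends, that of Hgf to 272 bases, ending with the hexamer, and that of Pdgfra to the 250 before the start. The match is a description of letters, not of binding.
Hgf, chr5:16553245-16553516 (GRCm38.p6): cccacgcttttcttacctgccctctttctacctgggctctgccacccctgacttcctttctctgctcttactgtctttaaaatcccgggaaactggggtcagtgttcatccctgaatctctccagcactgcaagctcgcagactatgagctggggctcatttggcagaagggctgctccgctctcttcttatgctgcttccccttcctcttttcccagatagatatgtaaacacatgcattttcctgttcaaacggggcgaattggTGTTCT
Pdgfra, chr5:75152001-75152250 (GRCm38.p6): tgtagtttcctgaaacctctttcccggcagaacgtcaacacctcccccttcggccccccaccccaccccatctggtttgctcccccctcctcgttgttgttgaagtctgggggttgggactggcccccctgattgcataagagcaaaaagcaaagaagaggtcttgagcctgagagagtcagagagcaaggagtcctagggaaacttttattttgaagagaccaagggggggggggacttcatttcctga

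Around these 10 genes, 6 lists of other ligands, receptors, adaptors and targets held 93 genes, of which 77 were tested. Of these 10 rose and 5 fell, or 19.5%, beside 15.1% of all tested rows.

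Among 15 FGF receptors, carriers and heparan sulfate co-receptors, 13 were tested, 2 rose and 2 fell, with a median of -0.02. Of all tested rows 15.1% were called. Gpc1, the gene of the cell-surface heparan sulfate proteoglycan glypican-1, was 12.03, 11.98, 12.04 and 12.06 after dexamethasone and 11.53, 11.55, 11.57 and 11.53 after vehicle. No library overlapped between the groups, and the difference was 0.48 (SE 0.027, adjusted p = 3.43e-06, limma). Fgfr3, another FGF receptor gene, rose from 11.64 ± 0.06 (SD, n = 4) to 11.83 ± 0.05 (SD, n = 4) (adjusted p = 0.0061, limma). The syndecan genes Sdc1 and Sdc2, which encode other cell-surface heparan sulfate proteoglycans, fell by 0.14 and 0.11 (adjusted p of 0.0263 and 0.0427, limma). Sdc1 lost its call in 6 of 18 alternatives, with an adjusted p of 0.0507 to 0.0791, among them on removing vehicle replicate 2, 3 or 4 or dexamethasone replicate 1 or 4. Sdc2 lost it in 8, with 0.0668 to 0.132, among them on removing replicate 1, 2 or 4 of either group. Of the 19 other FGF ligand genes 6 were tested and none was called, with a median of -0.02. Fgf10 was 11.27 ± 0.05 (SD, n = 4) against 11.19 ± 0.03 (SD, n = 4) (adjusted p = 0.151, limma), and Fgf14, an intracellular family member, was 7.07 ± 0.07 (SD, n = 4) against 7.11 ± 0.07 (SD, n = 4). Fgf3, Fgf6, Fgf15 and Fgf20 were listed at 0 in all 8 libraries.

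In the HGF and MET list, 2 of 13 genes rose and 1 fell, with a median of 0.06, beside 15.1% called of all tested rows. Mst1r, the gene of the MET-related receptor RON, rose by 0.18 (SE 0.040, adjusted p = 0.0121, limma) and Plxnb1, a semaphorin receptor gene whose product associates with MET, by 0.17 (SE 0.032, adjusted p = 0.00579, limma). Plau, the gene of urokinase, a protease of the plasminogen system, fell by 0.34 (SE 0.055, adjusted p = 0.00171, limma). In the PDGF list 1 of 7 genes passed, with a median of 0.06. It was the co-receptor gene Nrp1, which fell by 0.11 (adjusted p = 0.0321, limma), a call lost in 6 of 18 alternatives, with an adjusted p of 0.0647 to 0.105. Removing dexamethasone replicate 2, 3 or 4, or vehicle replicate 1 or 4, was enough to lose it. Pdgfrb, the partner receptor gene of Pdgfra, was 11.00 ± 0.05 (SD, n = 4) against 10.88 ± 0.08 (SD, n = 4) (adjusted p = 0.0808, limma), named after its value was seen.

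Among 21 adaptor, RAS and MAPK genes 2 rose and none fell, with a median of 0.01. This is a lower share called than the 15.1% of all tested rows. Pik3ca, the gene of a catalytic subunit of PI3-kinase, differed by 0.12 and Plcg1, a phospholipase C gene, by 0.14 (adjusted p of 0.0185 and 0.0317, limma). Pik3ca lost its call in 4 of 18 alternatives (adjusted p of 0.0528 to 0.0583), each on leaving out 1 library (vehicle replicate 2 or 4, or dexamethasone replicate 3 or 4). Plcg1 lost it in 9 (adjusted p of 0.0507 to 0.1), among them on removing replicate 2, 3 or 4 of either group.

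**Figure D4:**
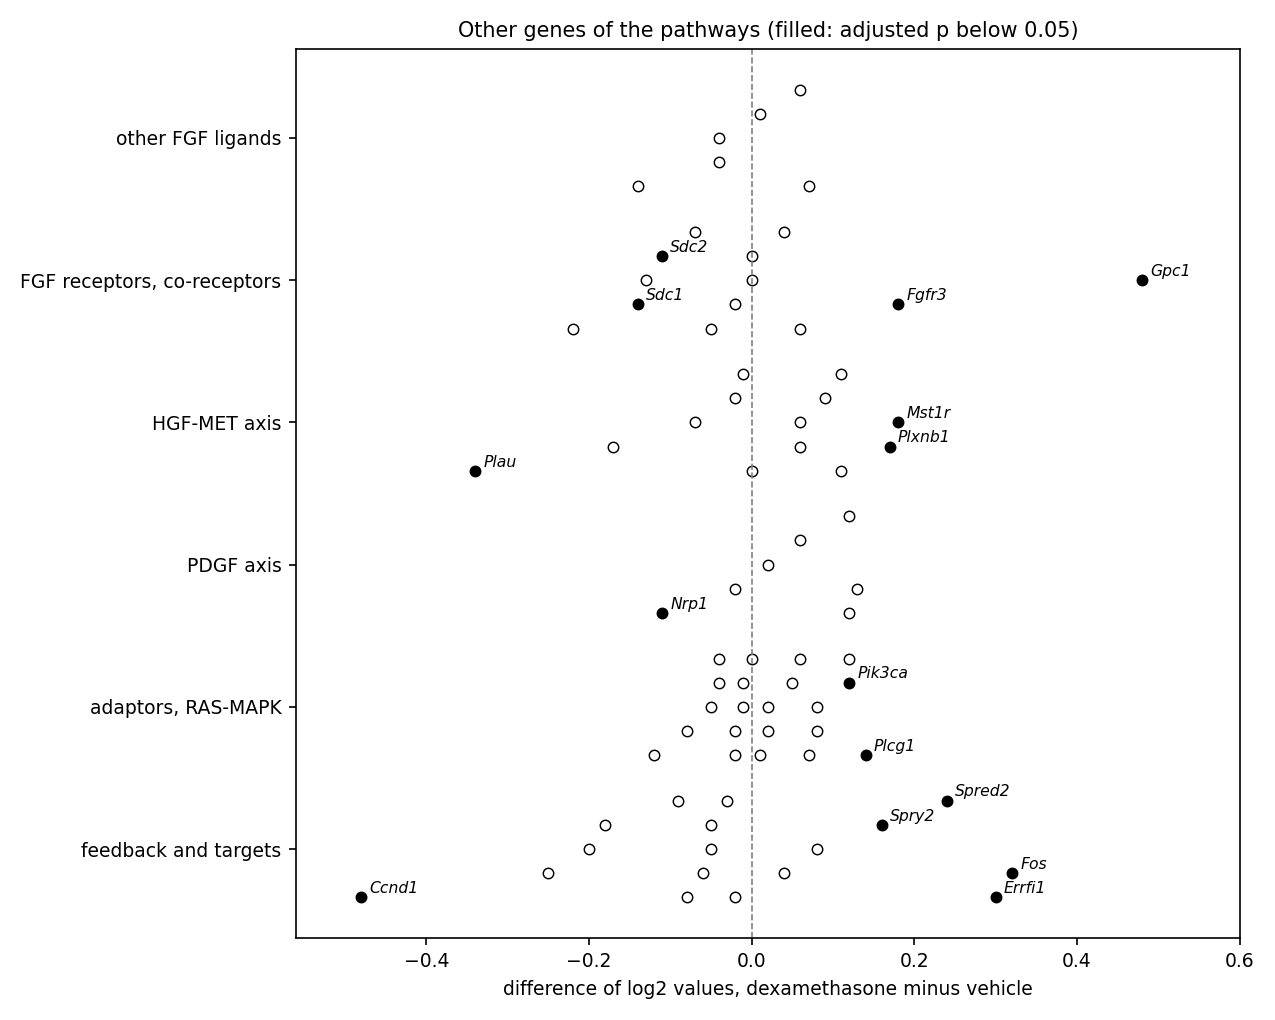
Difference of log2 values, dexamethasone minus vehicle (horizontal axis), of the 77 tested genes of the 6 lists (rows; the vertical offset within a row only separates points); filled points have an adjusted p below 0.05 and are named. Gpc1 stands farthest to the right at 0.48 and Ccnd1 farthest to the left at -0.48.

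Among 17 tested feedback inhibitors and target genes of receptor tyrosine kinases 4 rose, 1 fell and the others did not pass, with a median of -0.05. Of all tested rows 9.04% were called higher and 6.03% lower. The RAS-ERK inhibitor genes Spred2 and Spry2 rose by 0.24 and 0.16 (adjusted p of 0.000161 and 0.0133, limma). Errfi1, the gene of an inhibitor of EGF receptor family kinases, rose by 0.30 (SE 0.043, adjusted p = 0.000933, limma) and the immediate-early gene Fos by 0.32 (SE 0.058, adjusted p = 0.00387, limma). Ccnd1, the gene of cyclin D1, which growth factors induce before S phase, was 12.98, 12.92, 12.85 and 12.81 after dexamethasone and 13.30, 13.39, 13.35 and 13.41 after vehicle. All dexamethasone libraries were lower, by 0.48 on average (SE 0.040, adjusted p = 2.12e-05, limma).

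The FGF-responsive ETS factor genes Etv4 and Etv5 and the feedback inhibitor gene Spry4 varied between libraries of one group. Etv4 was 7.52, 6.91, 7.0 and 6.95 after dexamethasone and 7.15, 7.09, 7.70 and 7.15 after vehicle, so that dexamethasone replicate 1 and vehicle replicate 3 were above all others. Etv5 and Spry4 were highest in the same library of each group, at 8.56 and 8.83 for Etv5 and at 7.51 and 7.59 for Spry4. With all 8 libraries the differences of Etv4, Etv5 and Spry4 were -0.18, -0.25 and -0.20 and did not pass (adjusted p of 0.464, 0.0708 and 0.143, limma). Without the 2 libraries with high Krt16 they were -0.18, -0.25 and -0.24, and all 3 passed (adjusted p of 0.0179, 0.0106 and 0.0263, limma). These 2 libraries were picked from the same data and held the highest value of each gene in their group. Leaving them out narrows the spread, so these passes and the counts from that fit add no support. Etv4 was called in only 1 of 18 alternatives, this one. Etv5 and Spry4 were called in 2 of 18, this one and the one without dexamethasone replicate 1. In these 6 libraries Etv4 was 6.91 to 7.0 after dexamethasone and 7.09 to 7.15 after vehicle, without overlap. In that fit 22 of the 77 genes, or 28.6%, were called, 13 higher and 9 lower, beside 15.0% of all tested rows. Of the 17 feedback and target genes 4 were called higher, 4 lower and 9 were not called. Dusp6, an ERK phosphatase gene, was 10.88 to 11.05 against 10.89 to 11.19 over all 8 libraries and had its highest value in the same library of each group, but was not among those called in the 6 libraries (difference -0.01, adjusted p = 0.814, limma). Also not called in the 6 libraries were Etv1, another ETS factor gene, and the feedback inhibitor genes Spry1 and Spred1. Their differences there were -0.11, 0.04 and 0.01 (adjusted p of 0.0984, 0.445 and 0.871, limma). Spred1 was highest in the libraries with high Krt16, at 11.96 and 12.05, whereas Etv1 and Spry1 were not. The share of the wound state in these differences was not tested.

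**Figure D5:**
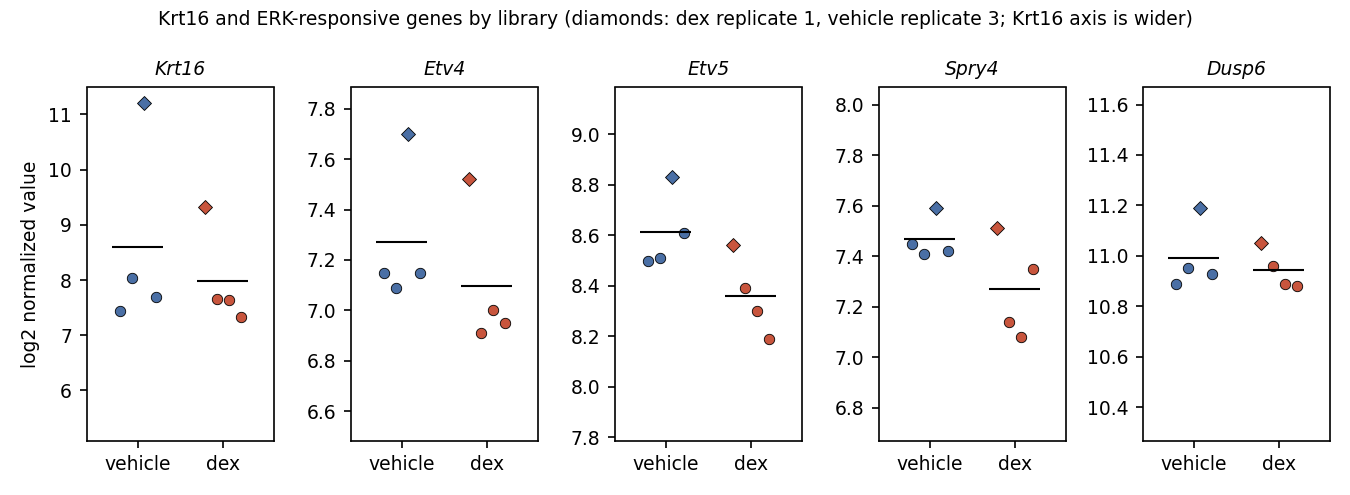
Log2 normalized value (vertical axes, that of Krt16 wider than the others) of Krt16 and of the ERK-responsive genes Etv4, Etv5, Spry4 and Dusp6 in vehicle (blue) and dexamethasone (red) libraries, with group means as lines; diamonds are dexamethasone replicate 1 and vehicle replicate 3. The diamonds are the highest points of their group in all 5 panels, and Etv4 stands at 7.52 and 7.70 in them against 6.91 to 7.15 in the other 6 libraries.

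Marker genes show how the tissue itself compared. Risers and fallers are the called genes of a list, beside 9.04% higher and 6.03% lower of all tested rows. The summed log2 level of 8 corneal epithelial markers, led by Krt12 and Aldh3a1, was 20.81 to 20.96 after dexamethasone and 20.92 to 20.97 after vehicle, with no riser and 1 faller. That of 8 keratocyte markers, led by Col1a1 and Dcn, was 18.23 to 18.32 and 18.22 to 18.30, with no riser and 3 fallers. The fallers were the corneal keratan sulfate proteoglycan genes Kera and Lum and the sulfotransferase gene Chst5, with differences of -0.14, -0.18 and -0.55 (adjusted p of 0.0241, 0.0128 and 0.000116, limma). That of 5 corneal endothelial markers, led by Col8a2 and Slc4a11, was 15.00 to 15.05 and 14.98 to 15.05, with no riser and 2 fallers. The fallers here were Slc4a11 and Cdh2, with differences of -0.21 and -0.15 (adjusted p of 0.00641 and 0.0302, limma). Col8a2 differed the other way, by 0.10, and did not pass (adjusted p = 0.0709, limma). The summed level of 7 vessel and pericyte markers, led by Kdr and Tie1, was 10.89 to 10.99 and 10.79 to 10.87, without overlap. Tie1 was the 1 riser (0.19, adjusted p = 0.0178, limma), and Cspg4 was 6.36 ± 0.09 (SD, n = 4) against 6.44 ± 0.07 (SD, n = 4). That of 3 Schwann cell and nerve markers, led by Ngfr and Sox10, was 10.89 to 11.04 and 11.07 to 11.22, without overlap, and the 1 faller was Ngfr (-0.17, adjusted p = 0.0192, limma). Ngfr made up most of this sum. Sox10 and S100b differed the other way, by 0.05 and 0.06, and did not pass (adjusted p of 0.365 and 0.487, limma). Leukocyte markers, led by Itgam and Csf1r (13.07 to 13.14 against 13.09 to 13.14), conjunctival and limbal markers, led by Muc4 and Krt15 (17.57 to 17.68 against 17.49 to 17.59), lens, iris and retina markers, led by Tyrp1 and Cryaa (9.36 to 9.81 against 9.41 to 9.71), and wound markers, led by Krt6a and Hbegf (16.46 to 16.73 against 16.43 to 16.89), overlapped and held no called gene. The wound sum was made up mostly of Krt6a, at 16.52 in both groups, and says little of the other wound genes. The keratocyte, endothelial and vessel sums likewise rest largely on Col1a1, Col8a2 and Kdr. Itgam, at 12.95 in both groups, made up most of the leukocyte sum, which therefore says little of the other leukocyte genes. Ptprc, Cd68 and Csf1r differed by -0.12, -0.01 and 0.03. No marker in the table was listed at 0, but the goblet cell mucin gene Muc5ac, the T cell gene Cd3e and the keratinocyte gene Sprr1b had means below 3 and were not tested, and Adgre1 was not found by symbol. The part of any cell type in the differences was not tested, and in whole corneas fewer cells of a type and less RNA per cell cannot be told apart.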

How the data were processed

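RNA from 8 pools of whole corneas was sequenced (paired reads of 75 bp). The submitters' processing notes name build mm9 and the tools Bowtie2, HTSeq and DESeq2, with versions, annotation, strand setting and transformation not given in the sources used here. Log2 normalized values were deposited by the authors as a table of 24918 rows and 1 column per library. Among 812 rows with means of 2 to 3 the within-group SD had a median of 0.0213, a spread like that of shrunken log2 values. This was inferred from the values. Differences are then understated, most for low genes.

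Rows with a mean of at least 3 were fitted with limma 3.58.1 in R 4.3.3 (two-sided, group term, trend over level), with Benjamini-Hochberg adjustment over all 14715 rows. The fit was tested on simulated data. SDs are over 4 libraries; SEs are moderated. Ratios were tested by exact permutation in Python 3.11.15. Coordinates and lengths came from GENCODE vM1 (NCBIM37, equal to mm9) and promoters from RefSeq on GRCm38.p6.

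Members and lists were chosen with earlier results of these data known. All 10 members were named, as were called list genes (up to 6 per list, or the 2 highest in a list with none), the 2 highest of each marker list, the 3 rows of a mean of at least 5 most like each called member, and Fkbp5, Tsc22d3 and Per1. Arhgap26, Nudt6, the other overlapping genes, Pdgfrb, Etv1, Etv4, Etv5, Spry1, Spry4, Spred1, Dusp6, Kera, Lum, Chst5, Cdh2, Cspg4, S100b, Ptprc, Cd68 and Krt16 were named after their values were seen. A few marker genes are not reported here and were left out of their lists. Alternatives were other filters, a pseudocount of 8, quantile normalization, median centring, other moderation, library weights, a replicate block, leaving out each library, and leaving out both libraries with high Krt16.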

Additional observations from a re-analysis of the deposited data

Results flagged for a closer look

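Among 20 sets of 4 libraries (10 genes in 2 groups), 1 held a library that was isolated by Dixon's criterion at the 95% level. Fgf2 was lowest in dexamethasone replicate 3, with a gap over range of 0.847. Chance flags about 1 in 20 sets. The values were 2.60, 2.60, 2.56 and 2.60.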

How the results depend on the processing

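Fgfr1 and Fgf1 were called in the same direction in all 18 alternatives. Of the 10 genes 3 or 4 were called in every alternative except the replicate block, which left 2 (Pdgfra at an adjusted p of 0.0555 and Hgf at 0.056, limma) and 1675 of all rows. Whether same-numbered libraries were handled together is not given in the labels. Correlations of their deviations from group means were -0.314 to 0.185. No dexamethasone library correlated best with its own number, and of the vehicle libraries only replicate 2 did. The highest correlation, 0.649, was between the 2 libraries with high Krt16. Such whole-profile correlations cannot settle whether the numbers mark a batch, and the reason for the lost calls was not tested. On leaving out each library in turn, 1411 (without vehicle replicate 4) to 2131 rows were called instead of 2218, 3 to 4 of the 10 genes, and 10 (without dexamethasone replicate 4) to 17 of the 77 list genes instead of 15. Of the genes not called, 2 changed sign. Pdgfa was -0.0044 with library weights and -0.0064 to 0.03 without single libraries, and Pdgfb was -0.0039 to 0.06 without single libraries. Hgf is left out by the filter at a mean of 5, and Fgf2 was fitted only without a filter (adjusted p = 0.918, limma). The unknown depth and the shrunken scale limit what can be said of Fgf2, Hgf and Fgf7.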
